A study of Mus musculus with 7 samples.

Results

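The genes of the Polycomb and trithorax complexes were compared between hematopoietic stem cells (HSCs) with and without Cebpa. A list of 44 genes was used, made up of subunits of Polycomb repressive complexes 1 and 2 (PRC1 and PRC2), the enzymes that remove their marks, and the MLL and SET1 methyltransferases with their shared subunits. A gene was taken as measured where a probe set was annotated to that gene alone, and the brightest such probe set over all arrays was used where there were several. This held for 43 of the 44 genes, out of 19938 genes measured in the same way, and Cbx6 was left out because its probe set is shared with other genes.

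The Cebpa Δ/Δ mice carried Cebpa flox/flox alleles and the Mx1Cre transgene (4 arrays), and the Cebpa fl/fl mice carried the flox/flox alleles alone (3 arrays). All were female C57BL/6 mice that received 3 injections of pIpC at 10 to 12 weeks of age and were killed at day 18, when HSCs were sorted from bone marrow as Lin-, Sca1+, cKit+, CD150+, CD48- cells. Mx1Cre is driven by an interferon-responsive promoter, so it is switched on by pIpC in many cell types besides HSCs, and because no fl/fl mouse carried it, effects of Cre and of the deletion cannot be told apart. The design text counts as many mice as arrays, so each array is treated as 1 animal, named by its genotype and replicate number.

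Polycomb and trithorax proteins keep genes silent or active through modified histones. PRC2 places the repressive mark H3K27me3 on histone H3, and PRC1 reads that mark through its chromobox subunits and ubiquitylates histone H2A, while MLL and SET1 complexes methylate H3K4, another lysine of the same histone, at active promoters and enhancers. In blood stem cells, Bmi1 is needed for self-renewal, Kmt2a maintains Hox gene expression, and mutations of EZH2, ASXL1, KDM6A and KMT2A recur in human myeloid neoplasms.

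On the arrays, Cebpa was lower in Cebpa Δ/Δ HSCs, at 5.11, 5.24, 5.27 and 5.27, against 5.54, 5.75 and 5.63 in Cebpa fl/fl HSCs on the log2 scale (exact two-sided permutation test over 35 splits, p = 0.0286, the smallest that 4 against 3 arrays can give). Array medians lay between 46.2 and 50.4 intensity units, and Δ/Δ 3 and fl/fl 1 had the lowest mean correlations with the other arrays, both 0.979. At an unadjusted limma p under 0.05, Cebpa Δ/Δ HSCs had higher levels of 7 of 7 measured erythroid markers (such as Klf1 and Slc4a1). They had less of 7 of 7 neutrophil markers (such as S100a8 and Ngp). Of all genes, 4.4% were higher and 3.08% were lower at that threshold. The summed linear levels were 1763 to 3407 in Δ/Δ arrays against 411 to 734 in fl/fl arrays for the erythroid list, and 260 to 1056 in Δ/Δ arrays against 6769 to 17064 in fl/fl arrays for the neutrophil list. Of 6 measured markers that the sort should leave out, Cd48 (log2 fold change 2.75) and Cd3e (0.30) were higher and Ly6g (-1.84) was lower. Of 6 macrophage markers, C1qb (1.81) and C1qc (2.02) were higher and none was lower, and their summed levels were 508 to 966 in Δ/Δ arrays against 289 to 441 in fl/fl arrays. 6 measured HSC genes (Slamf1, Kit, Procr, Hlf, Tek and Fgd5) had negative log2 fold changes and none passed the test. Arrays did not overlap between genotypes for 1 of the 6, Kit, against 2.46% of all genes in the lower direction. Its nearest arrays were close, Δ/Δ 2 at 10.38 and fl/fl 2 at 10.39. In sorted cells measured in bulk, fewer cells of a type and less RNA per cell cannot be told apart, and the part of these lists in the results that follow was not tested.

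None of the 43 measured genes differed between genotypes at an adjusted limma p under 0.05, and the same held for all 19938 genes (0%). At an unadjusted p under 0.05, 1 of the 43 genes passed, Kmt2d, which was lower in Cebpa Δ/Δ HSCs. Of all genes 7.48% passed that threshold, 4.4% as higher and 3.08% as lower, and among the 9969 genes above the median expression level, where all 43 members lie, 10.7% did. No member changed by over 1.5-fold, against 2.99% of all genes, and none passed with both thresholds, against 1.57% of all genes in the higher and 0.617% in the lower direction. Arrays of the 2 genotypes failed to overlap for Kmt2d alone, in the lower direction, against 5.97% of all genes (3.51% higher and 2.46% lower).

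The median log2 fold change over the members was -0.02, against -0.00 over all genes, and the median size without regard to sign was 0.10, against 0.09 over all genes and 0.13 over the genes above the median level. Values ran from -0.36 (Kmt2a) to 0.41 (Suz12), with standard errors between 0.05 and 0.29, and 25 of 43 members (58.1%) had a negative value, against 50.3% of all genes. How firmly each gene can be read follows from its 95% confidence interval. For 29 of the 43 members (67.4%) the interval lay inside 1.5-fold in either direction, against 74.2% of all genes and 61.3% of genes above the median level. For the other 14, a 1.5-fold change in at least 1 direction was not excluded by these 7 arrays.

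**Figure D1:**
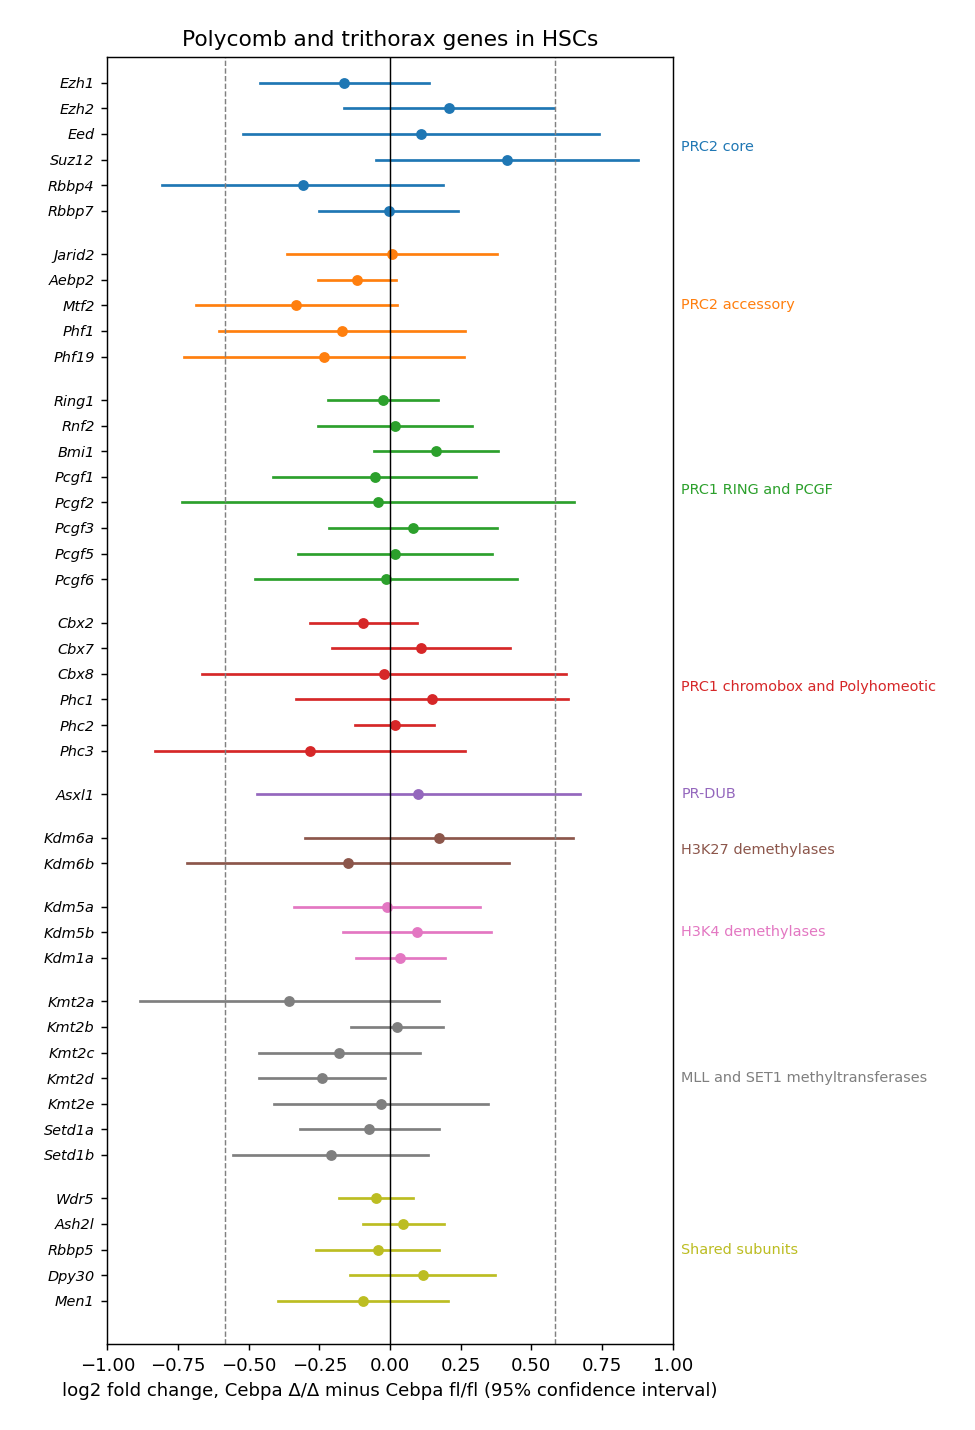
Log2 fold change, Cebpa Δ/Δ minus Cebpa fl/fl (x axis), of the 43 measured genes (y axis), coloured by complex, with 95% confidence intervals from limma and dashed lines at 1.5-fold. The interval of Kmt2d alone leaves out 0, and those of 14 genes reach past a dashed line.

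PRC2 is built from a methyltransferase (Ezh1 or Ezh2), the scaffold Suz12, the mark reader Eed and the histone chaperones Rbbp4 or Rbbp7. 3 of these 6 core genes had positive and 3 had negative log2 fold changes, with a median of 0.05, and none passed the test. Ezh2, the catalytic subunit that prevails in dividing cells, measured 9.30, 8.95, 9.38 and 8.80 in Δ/Δ 1 to 4, against 8.95, 8.80 and 8.95 in fl/fl 1 to 3. Δ/Δ 1 and Δ/Δ 3 stood above all fl/fl arrays, whereas Δ/Δ 2 was level with the highest and Δ/Δ 4 with the lowest of them. The log2 fold change of Ezh2 was 0.21 (95% confidence interval -0.16 to 0.58, exact permutation p = 0.400).

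The same arrays were high for genes of the cell cycle, a list of 17 measured genes such as Mki67, Top2a and Birc5. Of these, 6 were higher at an unadjusted limma p under 0.05, against 4.4% of all genes, and 17 had positive log2 fold changes. Summed over that list, the linear level was 11357, 9082, 10611 and 7677 in Δ/Δ 1 to 4, against 7483, 8426 and 6818 in fl/fl 1 to 3. Whether the level of Ezh2 follows that of the cell cycle genes was not tested.

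Ezh1, the paralog that is more prominent in resting cells, measured 7.32, 7.55, 7.43 and 7.39 in Δ/Δ 1 to 4, against 7.88, 7.44 and 7.44 in fl/fl 1 to 3. fl/fl 1 was the highest array, and Δ/Δ 2 lay above the other two fl/fl arrays. Its log2 fold change was -0.16 (interval -0.46 to 0.14, exact permutation p = 0.314), so that a 1.5-fold change lay outside the interval in both directions.

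Suz12, without which PRC2 does not assemble, had the largest positive value among the members. It measured 9.29, 9.42, 9.06 and 9.30 in Δ/Δ 1 to 4, against 8.46, 9.27 and 8.82 in fl/fl 1 to 3. All Δ/Δ arrays were above fl/fl 1 and fl/fl 3, but fl/fl 2 lay among them. The log2 fold change was 0.41 (interval -0.05 to 0.88, exact permutation p = 0.114, adjusted limma p = 0.688). Over the 15 alternatives tried it ran from 0.22 to 0.62. It passed the unadjusted threshold in 1 of them, without fl/fl 2, where it was 0.62.

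Of the other core genes, Eed had a log2 fold change of 0.11 on its brighter probe set, with a wide interval of -0.52 to 0.74. A dimmer probe set of Eed gave 0.00, but its mean was 4.69 in both genotypes, below the median gene level of 5.86. Rbbp4 had -0.31, with fl/fl 1 alone at 9.08, fl/fl 2 and fl/fl 3 at 8.39 and 8.24 and the Δ/Δ arrays between 8.06 and 8.39. Rbbp7 measured 9.66 ± 0.17 (SD, n = 4) in Cebpa Δ/Δ and 9.67 ± 0.09 (SD, n = 3) in Cebpa fl/fl HSCs, and its interval of -0.25 to 0.24 lay inside 1.5-fold. Across the core, fl/fl 1 was the highest fl/fl array for 5 of 6 genes, all but Suz12, for which it was the lowest. For Ezh2 it was practically level with fl/fl 3. The same array was highest for 39.5% of members and 30.6% of genes above the median level. It was also the lowest fl/fl array for 39.5% of members and 38.9% of those genes.

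The accessory subunits steer PRC2 to chromatin in 2 forms, with Mtf2, Phf1 or Phf19 in one and Jarid2 and Aebp2 in the other. 4 of these 5 genes had negative log2 fold changes, with a median of -0.17, and none passed the test. Mtf2, a Polycomb-like protein that binds CpG-rich DNA, measured 9.08, 9.33, 9.24 and 8.98 in Δ/Δ 1 to 4, against 9.81, 9.31 and 9.35 in fl/fl 1 to 3. The groups overlapped by Δ/Δ 2, which was just above fl/fl 2, and fl/fl 1 stood alone at the top. Its log2 fold change was -0.33 (interval -0.69 to 0.02, exact permutation p = 0.0857, adjusted limma p = 0.673).

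Aebp2, a zinc finger subunit, was at 7.08 ± 0.04 (SD, n = 4) in Cebpa Δ/Δ and 7.20 ± 0.09 (SD, n = 3) in Cebpa fl/fl HSCs, with a log2 fold change of -0.12 (interval -0.26 to 0.02). Phf1 and Phf19, the other Polycomb-like proteins, had log2 fold changes of -0.17 and -0.23. For Phf19, Δ/Δ 3 lay far below the rest at 5.36, while the other Δ/Δ arrays were between 6.06 and 6.09 and the fl/fl arrays between 5.91 and 6.26. Jarid2, which joins PRC2 to ubiquitylated H2A, had a log2 fold change of 0.01, with fl/fl 1 at 7.40 and fl/fl 3 at 8.05 on either side of every Δ/Δ array.

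PRC1 carries a RING finger ligase, Ring1 or Rnf2, paired with 1 of the PCGF proteins that define its variants. These 8 genes differed little, with log2 fold changes between -0.05 and 0.16 and a median of 0.00. Ring1 and Rnf2 had values of -0.02 and 0.02, and both intervals lay inside 1.5-fold. Bmi1 (Pcgf4), the PCGF protein of canonical PRC1 that restrains the Cdkn2a locus, measured 7.85, 7.73, 7.80 and 7.73 in Δ/Δ 1 to 4, against 7.80, 7.43 and 7.62 in fl/fl 1 to 3. The Δ/Δ arrays were above fl/fl 2 and fl/fl 3, and fl/fl 1 lay within them. The log2 fold change of Bmi1 was 0.16 (interval -0.06 to 0.38, exact permutation p = 0.114). Without fl/fl 1 it was 0.25 and passed the unadjusted threshold, whereas without fl/fl 2 it was 0.07 and did not. It passed in 2 of the 15 alternatives, both of them without fl/fl 1.

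Pcgf2 (Mel18), the paralog that takes the place of Bmi1 in canonical PRC1, had the widest interval of all members, -0.74 to 0.65 around a log2 fold change of -0.04. It measured 7.37, 7.16, 7.29 and 7.37 in Δ/Δ 1 to 4, against 6.60, 7.53 and 7.89 in fl/fl 1 to 3. The spread lay within Cebpa fl/fl, where fl/fl 1 was below every Δ/Δ array and fl/fl 2 and fl/fl 3 were above them. Without fl/fl 1 the log2 fold change was -0.41, past the unadjusted threshold. Over the 15 alternatives it ran from -0.41 to 0.23, passed in 2, both without fl/fl 1, and turned positive in 3. The PCGF proteins of the variant complexes, Pcgf1, Pcgf3, Pcgf5 and Pcgf6, had log2 fold changes of -0.05, 0.08, 0.02 and -0.01, each with an interval inside 1.5-fold.

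Canonical PRC1 binds H3K27me3 through a chromobox protein and forms larger bodies through the Polyhomeotic proteins. The 6 measured genes of these families had a median log2 fold change of -0.00, 3 positive and 3 negative, and none passed the test. Cbx7, the chromobox protein that in mouse blood favours self-renewal, had a log2 fold change of 0.11 (interval -0.21 to 0.43). Cbx8 had -0.02 and Cbx2 had -0.09. Cbx8 was poorly determined, with an interval of -0.67 to 0.62 and fl/fl arrays as far apart as 6.91 (fl/fl 1) and 5.85 (fl/fl 2), while Cbx2 was tight, at 7.28 in Δ/Δ 1, 2 and 4 and 7.04 in Δ/Δ 3, against 7.27, 7.40 and 7.28 in fl/fl 1 to 3. Values repeated between arrays, as in Δ/Δ 1, Δ/Δ 2, Δ/Δ 4 and fl/fl 3 here, occur in the deposited file, where 18 of 43 members (41.9%) and 63.6% of all genes share a value between arrays.

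Among the Polyhomeotic proteins, Phc2 had the narrower interval, -0.12 to 0.16 around a log2 fold change of 0.02. Phc1 had 0.15 and Phc3 had -0.28, and both intervals reached past 1.5-fold in 1 direction. Phc3 was lowest in Δ/Δ 3 at 7.21, against 7.86 to 8.18 in the other Δ/Δ arrays and 7.95 to 8.19 in the fl/fl arrays. A dimmer probe set of Phc3 gave -0.04.

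Asxl1, a cofactor of the H2A deubiquitylase PR-DUB and a frequent target of mutations in myeloid disease, measured 8.36, 8.47, 7.84 and 8.63 in Δ/Δ 1 to 4, against 7.83, 8.33 and 8.53 in fl/fl 1 to 3. 1 array of each genotype, Δ/Δ 3 and fl/fl 1, lay clearly below the rest, and the groups overlapped throughout. The log2 fold change was 0.10 (interval -0.47 to 0.67, exact permutation p = 0.629), so a level 1.5-fold higher was not excluded.

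Removal of H3K27me3 is carried out by Kdm6a (Utx) and Kdm6b (Jmjd3), and neither differed at the thresholds used. Kdm6b, which responds to inflammatory signals, measured 7.06, 7.26, 7.01 and 7.77 in Δ/Δ 1 to 4, against 7.20, 7.25 and 7.83 in fl/fl 1 to 3. Δ/Δ 4 and fl/fl 3 were high and the other 5 arrays lay close together, so the spread within genotypes exceeded the log2 fold change of -0.15 (interval -0.72 to 0.42). Kdm6a had a log2 fold change of 0.17 (interval -0.30 to 0.65). A 1.5-fold change thus stayed within the interval for both demethylases, in the lower direction for Kdm6b and the higher for Kdm6a.

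The MLL and SET1 methyltransferases held the one member that passed the unadjusted threshold. Kmt2d (Mll4), which methylates H3K4 mainly at enhancers, measured 8.88, 9.09, 9.16 and 9.16 in Δ/Δ 1 to 4, against 9.31, 9.19 and 9.43 in fl/fl 1 to 3. Every Δ/Δ array was below every fl/fl array, with Δ/Δ 4 and fl/fl 2 close to each other. The means were 9.07 ± 0.13 (SD, n = 4) in Cebpa Δ/Δ and 9.31 ± 0.12 (SD, n = 3) in Cebpa fl/fl HSCs. The log2 fold change was -0.24 (SE 0.09, interval -0.46 to -0.02), with p = 0.0391 and an adjusted p of 0.663 in limma, and an exact two-sided permutation p of 0.0286.

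A dimmer probe set of Kmt2d had a log2 fold change of -0.39 (SE 0.15), also at an unadjusted limma p under 0.05. It measured 8.05, 8.32, 7.89 and 8.33 in Δ/Δ 1 to 4, against 8.32, 8.71 and 8.58 in fl/fl 1 to 3. There the groups touched, since Δ/Δ 2 and Δ/Δ 4 lay just above fl/fl 1. On the brighter probe set, the unadjusted limma p exceeded 0.05 once fl/fl 1, fl/fl 3, or either of the first 2 Δ/Δ arrays was left out singly, and the log2 fold change came to -0.18 without fl/fl 3. Once array medians were subtracted, its arrays overlapped between genotypes.

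Kmt2a (Mll1), the founding member of the family and the gene rearranged in MLL leukemia, had the most negative value of all members. It measured 9.27, 9.77, 8.85 and 9.60 in Δ/Δ 1 to 4, against 9.68, 9.65 and 9.85 in fl/fl 1 to 3. Δ/Δ 1, Δ/Δ 3 and Δ/Δ 4 were below all fl/fl arrays, Δ/Δ 4 by little, and Δ/Δ 2 lay between them. The log2 fold change was -0.36 (interval -0.88 to 0.17, exact permutation p = 0.229), so a change of over 1.5-fold downwards was not excluded.

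Of the 7 methyltransferase genes, 6 had negative log2 fold changes and their median was -0.18, which came to -0.08 without Δ/Δ 3 and to -0.10 with the mean of all probe sets of a gene. Kmt2c (Mll3), the close paralog of Kmt2d, had -0.18, Setd1b had -0.21, Setd1a had -0.07 and Kmt2e, a family member without clear methyltransferase activity, had -0.03. Kmt2b (Mll2), which acts at promoters that carry both H3K4 and H3K27 marks, was the exception with 0.02. Intervals of all but Kmt2a lay inside 1.5-fold. A dimmer probe set of Setd1b gave 0.02.

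The shared subunits of MLL and SET1 complexes, Wdr5, Ash2l, Rbbp5 and Dpy30, together with menin (Men1), which anchors Kmt2a and Kmt2b, showed small differences. Their log2 fold changes ran from -0.09 (Men1) to 0.12 (Dpy30), with a median of -0.04, and all 5 intervals lay inside 1.5-fold. Wdr5, the scaffold that holds the enzymes to their partners, had among the narrowest intervals, -0.18 to 0.08, and Ash2l had -0.10 to 0.19.

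The demethylases of H3K4 gave a like picture, with log2 fold changes of -0.01 for Kdm5a, 0.10 for Kdm5b and 0.04 for Kdm1a (Lsd1) and all 3 intervals inside 1.5-fold. Kdm5b, which removes H3K4 trimethylation, measured 8.06, 8.33, 8.14 and 8.29 in Δ/Δ 1 to 4, against 8.22, 7.90 and 8.20 in fl/fl 1 to 3. fl/fl 2 was the lowest array and the remaining arrays of the genotypes were mixed. Its interval was -0.17 to 0.36 (exact permutation p = 0.486).

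**Figure D2:**
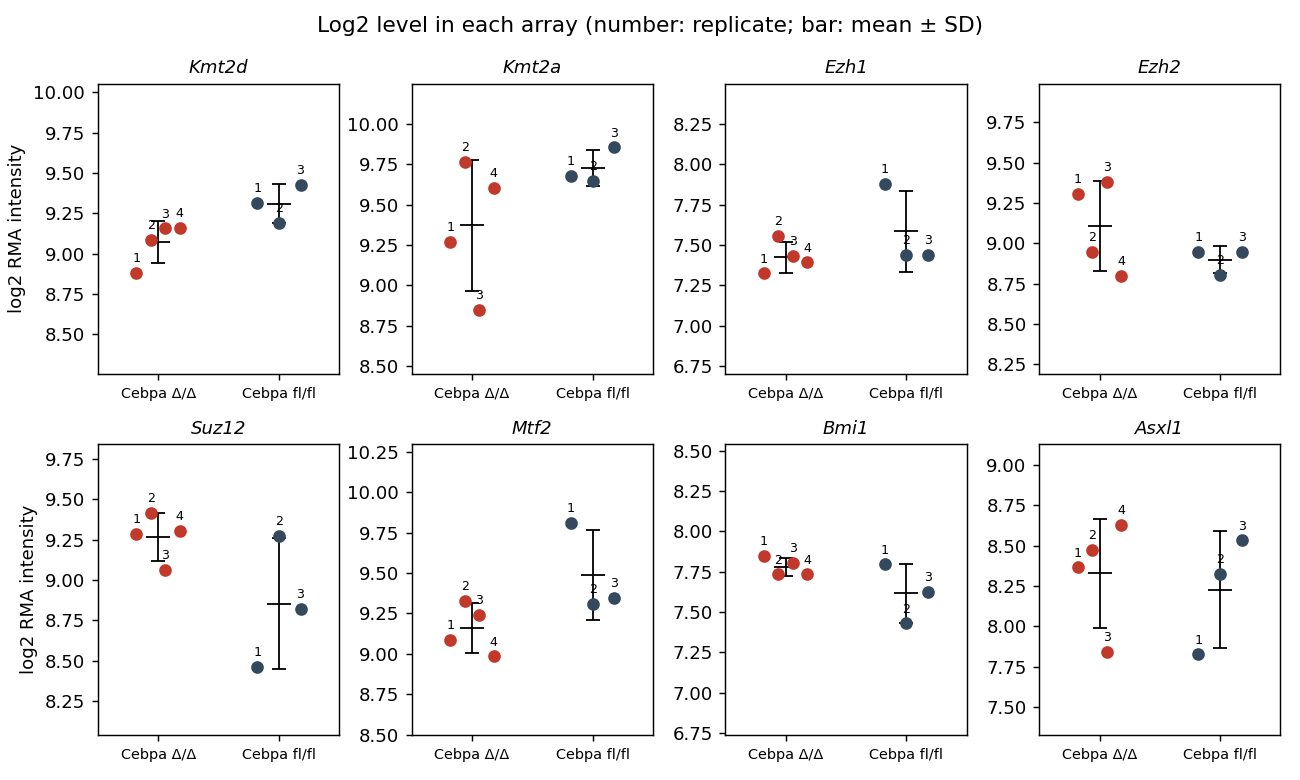
Log2 intensity (y axis) of 8 genes in each array, with the replicate number above each point and bars for the mean ± SD of Cebpa Δ/Δ (left) and Cebpa fl/fl (right). Kmt2d alone has no overlap between genotypes. Suz12 and Mtf2 were added to the plot after their values were seen.

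Paralogs that occupy the same place in a complex were compared within each array, since such a difference is free of scaling between arrays. Only its change between genotypes can be read, because different probe sets differ in brightness. Ezh1 minus Ezh2 was lower by 0.37 on average in Cebpa Δ/Δ than in Cebpa fl/fl HSCs, with -1.98, -1.39, -1.95 and -1.41 in Δ/Δ 1 to 4, against -1.07, -1.36 and -1.51 in fl/fl 1 to 3. Δ/Δ 1 and Δ/Δ 3 were below all fl/fl arrays, and Δ/Δ 2 and Δ/Δ 4 lay within them. The exact two-sided permutation test gave p = 0.229, and 0.628 after adjustment over the 4 pairs compared.

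The differences of the other 3 pairs changed by 0.32 for Kdm6a minus Kdm6b, 0.21 for Bmi1 minus Pcgf2 and 0.13 for Cbx7 minus Cbx8, with exact permutation p values of 0.314, 0.657 and 0.771. For Bmi1 minus Pcgf2 the Δ/Δ arrays lay close together, with an SD of 0.09, against 0.80 in fl/fl arrays, where fl/fl 1 stood alone at 1.19.

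**Figure D3:**
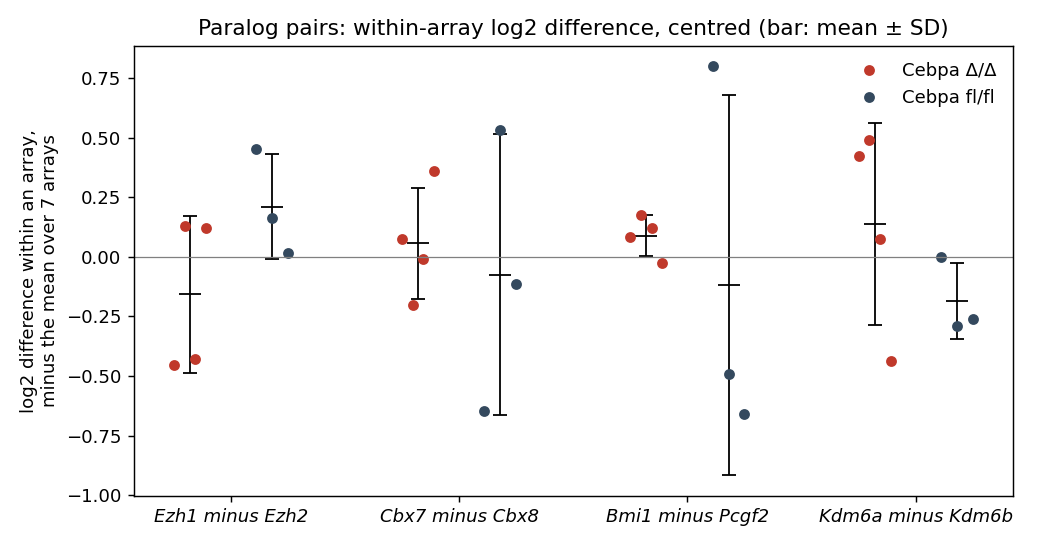
Within-array log2 difference between 2 paralogs, minus its mean over the 7 arrays (y axis), for 4 pairs (x axis) in Cebpa Δ/Δ (left, red) and Cebpa fl/fl (right, blue), with bars for mean ± SD. The genotypes overlap for each pair, and fl/fl 1 stands apart for Bmi1 minus Pcgf2.

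Within a genotype, some arrays were more often extreme than others, among the members and also among the genes above the median level. Δ/Δ 3 was the lowest Δ/Δ array for 19 of 43 members (44.2%), against 35% of the genes above the median level. In both sets it was the Δ/Δ array most often lowest. This held for 5 of the 7 methyltransferases and 4 of the 6 chromobox and Polyhomeotic genes, but for 1 of the 6 PRC2 core genes, of which Δ/Δ 3 was the highest Δ/Δ array for 4. The median deviation of the 7 methyltransferases from each gene's mean over the arrays was -0.10, 0.02, -0.29 and 0.08 in Δ/Δ 1 to 4, against 0.06, 0.02 and 0.18 in fl/fl 1 to 3. The lowest of these was Δ/Δ 3, and Δ/Δ 2 and Δ/Δ 4 lay within the range of the fl/fl arrays.

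The 6 HSC genes named above were low in the same arrays, with median deviations of -0.26, 0.16, -0.48 and 0.05 in Δ/Δ 1 to 4, against 0.14, 0.13 and 0.30 in fl/fl 1 to 3. Both lists were lowest in Δ/Δ 3 and next lowest in Δ/Δ 1, the 2 arrays that were highest for the erythroid list, with 3407 in Δ/Δ 1 and 2840 in Δ/Δ 3, and for the macrophage list, with 966 and 795. The part of these lists in the levels of the methyltransferases was not tested. For the 6 PRC2 core genes the median deviations were -0.02, -0.05, 0.11 and -0.18 in Δ/Δ 1 to 4, against 0.24, -0.05 and -0.11 in fl/fl 1 to 3, highest in fl/fl 1.

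**Figure D4:**
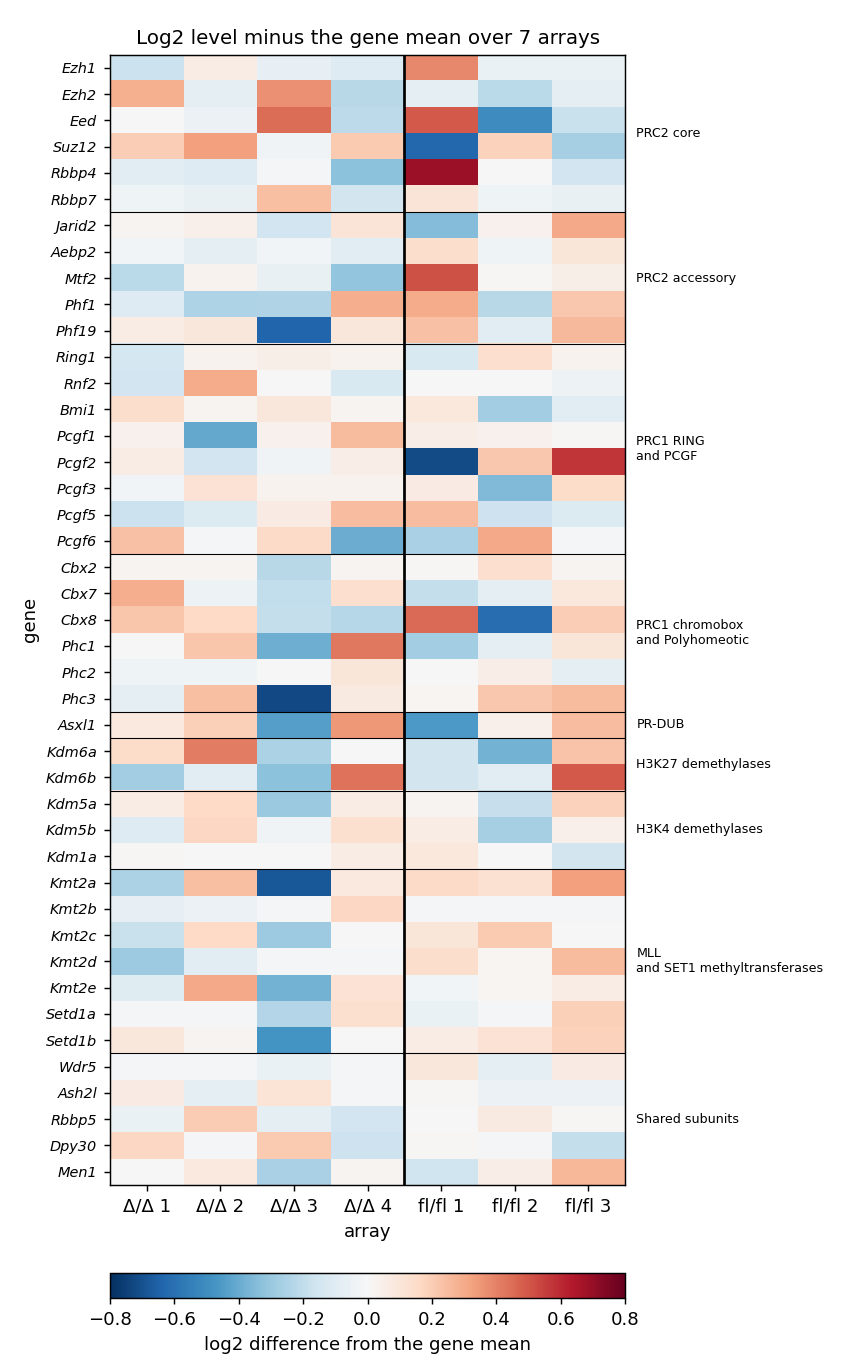
Log2 level minus the gene's mean over the 7 arrays (colour), for the 43 measured genes grouped by complex (rows) in 4 Cebpa Δ/Δ arrays (left of the line) and 3 Cebpa fl/fl arrays (right). Δ/Δ 3 is the lowest Δ/Δ array for 5 of the 7 methyltransferases, against 35% of the genes above the median level. fl/fl 1 is the highest fl/fl array for 5 of the 6 PRC2 core genes, against 30.6% of the genes above the median level. For Ezh2 it is practically level with fl/fl 3.

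Further subunits of the same complexes were examined as a second list of 26 genes, of which 25 were measured. In Cebpa Δ/Δ HSCs, 0 of them were higher at an unadjusted limma p under 0.05, against 4.4% of all genes. 3 were lower, against 3.08%, and none passed after adjustment. Arrays did not overlap between genotypes for 4 of the 25 in the lower direction (Ogt, Scml2, Bcorl1 and Foxk1), against 2.46% of all genes. In the higher direction this held for 0, against 3.51%. Ogt, the O-GlcNAc transferase that modifies the cofactor Hcfc1 and associates with PR-DUB, measured 9.90, 9.97, 10.04 and 10.11 in Δ/Δ 1 to 4, against 10.29, 10.20 and 10.31 in fl/fl 1 to 3. The groups did not overlap, and the log2 fold change was -0.26 (interval -0.42 to -0.10, adjusted p = 0.507 in limma).

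Scml2, a PRC1-associated protein, and Bcorl1, a subunit of a variant PRC1 with Pcgf1, had log2 fold changes of -0.34 and -0.40, with adjusted p of 0.637 and 0.663 in limma. Scml2 averaged 5.63 ± 0.11 (SD, n = 4) in Cebpa Δ/Δ and 5.97 ± 0.17 (SD, n = 3) in Cebpa fl/fl HSCs. It is the 1 partner gene whose mean over all arrays lay below the median gene level of 5.86. Bcorl1 averaged 6.68 ± 0.11 (SD, n = 4) in Cebpa Δ/Δ and 7.08 ± 0.32 (SD, n = 3) in Cebpa fl/fl HSCs, where fl/fl 1 was highest at 7.42. The unadjusted limma p stayed under 0.05 in all 15 alternatives for Ogt, in 11 of the 14 that could be run for Scml2 and in 6 of 15 for Bcorl1, whose log2 fold change was -0.23 without fl/fl 1 and -0.19 without both fl/fl 1 and Δ/Δ 3. Foxk1 did not pass the unadjusted threshold, with a log2 fold change of -0.24 (interval -0.54 to 0.07). Its nearest arrays were close, Δ/Δ 2, Δ/Δ 3 and Δ/Δ 4 sharing a value of 8.177 and fl/fl 1 at 8.182. The median log2 fold change of the 25 genes was 0.01, with 13 positive and 12 negative values.

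Textbook target genes of the complexes were given by value, and none of 7 passed the test. Those that Kmt2a maintains in stem cells had negative log2 fold changes, -0.48 for Hoxa9, -0.32 for Meis1, -0.41 for Mecom, -0.21 for Hoxa7 and -0.16 for Hoxa10. Hoxa9, with the most negative value of these (exact permutation p = 0.286, interval -1.06 to 0.10), was at 7.61, 8.17, 7.45 and 8.18 in Δ/Δ 1 to 4, against 8.12, 8.17 and 8.71 in fl/fl 1 to 3. As for the methyltransferases, Δ/Δ 1 and Δ/Δ 3 were the low arrays, and Δ/Δ 2 and Δ/Δ 4 lay within the fl/fl range. Cdkn2a and Cdkn2b, cell cycle inhibitors held silent by PRC1 and PRC2, had log2 fold changes of 0.01 and 0.05. Both lay below the median gene level of 5.86, with Cdkn2a between 4.56 and 4.79 and Cdkn2b between 5.27 and 5.43 over all arrays, and no absence of change is read from them.

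Promoters of the members were searched for letters bound by C/EBP factors, TTGCNNAA on both strands, and by E2F factors, TTTCCCGC or TTTGGCGC on both strands, in the 250 bases before each RefSeq start (assembly GRCm38.p6). A start was given for 35 of the measured genes, with 48 windows in all. A C/EBP match lay in 2 of the 48 windows, 1 of Cbx8 and 1 of Pcgf5, against 9.56% of 32851 windows of all genes, and an E2F match in 2, those of Phf19 and Suz12, against 1.3%. Neither Cbx8 (-0.02) nor Pcgf5 (0.02) passed any threshold used. The windows of Kmt2d (chr15:98871206-98871455, minus strand), the one member past the unadjusted threshold, of Suz12 (chr11:79992856-79993105, plus strand), the largest positive value, and of Cbx8 (chr11:119040914-119041163, minus strand), with a C/EBP match, are printed 5′ to 3′ with matches in capitals. That of Suz12 begins 219 bases and that of Cbx8 118 bases before the start, and the Kmt2d window held neither motif.
Kmt2d: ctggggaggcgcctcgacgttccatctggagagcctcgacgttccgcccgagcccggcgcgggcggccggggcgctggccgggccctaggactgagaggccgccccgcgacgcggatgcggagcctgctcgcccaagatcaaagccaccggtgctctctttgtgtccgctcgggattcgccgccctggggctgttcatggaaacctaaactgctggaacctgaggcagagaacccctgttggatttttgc
Suz12: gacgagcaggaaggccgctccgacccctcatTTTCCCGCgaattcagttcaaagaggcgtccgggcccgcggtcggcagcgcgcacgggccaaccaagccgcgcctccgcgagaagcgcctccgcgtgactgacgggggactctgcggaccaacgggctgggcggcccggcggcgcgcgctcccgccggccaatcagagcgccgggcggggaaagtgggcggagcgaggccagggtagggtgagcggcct
Cbx8: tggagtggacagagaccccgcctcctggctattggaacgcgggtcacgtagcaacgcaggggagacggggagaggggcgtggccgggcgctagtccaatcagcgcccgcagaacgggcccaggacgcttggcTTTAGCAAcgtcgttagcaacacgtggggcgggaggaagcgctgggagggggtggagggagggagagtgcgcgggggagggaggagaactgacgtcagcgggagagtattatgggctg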

How the data were processed

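Amplified, biotin-labelled RNA of sorted HSCs was measured on Affymetrix Mouse Gene 1.0 ST arrays. The deposited intensity values came from the authors' Robust Multichip Average (RMA) in Partek Genomics Suite, and RMA and affy are also named, without versions, by the submitters' processing notes. Since RMA gives all arrays like distributions, genotypes could differ in RNA content per cell unseen. Array values have no zero and no depth, and the number of arrays limits the precision. Values were linear, from 1.51 to 9840, and log2 was taken without a pseudocount.

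Of 35556 probe sets, 21789 had 1 gene symbol in the annotation, 1621 had several and 12146 had none here. Symbols were updated by Entrez number for 21698. Of the 999 genes with several probe sets, 5 of them members, the brightest probe set was used, leaving 19938 genes. Levels were not compared between probe sets.

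The fold change of Cebpa Δ/Δ over Cebpa fl/fl was fitted in limma 3.58.1 under R 4.3.3 (lmFit, eBayes) on all genes and 7 arrays, with genotype as the only term and Benjamini-Hochberg adjustment over all genes at 0.05. The study's own thresholds, unadjusted p under 0.05 and over 1.5-fold (0.585 on the log2 scale), were counted too. For single values an exact two-sided permutation test was run over the 35 splits of the arrays. The fit was tested on simulated data. The members, the other lists and the comparisons were chosen with earlier results of these data known, so no p for genes is adjusted over a list alone. The p-values of the 4 paralog pairs were adjusted over those pairs. Values in every array are given for members past the unadjusted threshold or without overlap, and, however they moved, for Ezh1, Ezh2, Bmi1, Kmt2a, Asxl1, Kdm6b and Kdm5b. Others shown by array were chosen after their values were seen. Partner genes were named at an unadjusted p under 0.05, with Foxk1 added for arrays without overlap, and target genes were given by value. 15 alternatives were tried. Promoter sequences came from RefSeq (GRCm38.p6).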

Additional observations from a re-analysis of the deposited data

Results flagged for a closer look

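In 6 of the 43 members (14.0%) 1 of the 4 Cebpa Δ/Δ arrays lay far from the other three by Dixon's criterion, which chance meets in about 1 of 20 groups, and 22.6% of all genes met it. 4 of the 6 rest on Δ/Δ 3. Phf19, a PRC2 accessory subunit, was at 5.36 in Δ/Δ 3, with the other Δ/Δ arrays between 6.06 and 6.09. Setd1b, an H3K4 methyltransferase, was at 7.93 in Δ/Δ 3, with the others between 8.41 and 8.49. Cbx2 was at 7.04 in Δ/Δ 3, with the others all at 7.28. Wdr5 was at 8.06 in Δ/Δ 3, with the others all at 8.10, a gap that is small in size. For Cbx2 and Wdr5 the other Δ/Δ arrays hold the same repeated value, so any gap meets the criterion and the rate of 1 in 20 does not apply. Ring1 was at 6.99 in Δ/Δ 1, with the others between 7.16 and 7.17. Phf19 and Ring1 also repeat a value, in Δ/Δ 2 and Δ/Δ 4. Kdm1a was at 8.51 in Δ/Δ 4, with the others between 8.45 and 8.46. Among the partner genes, Scml2 was at 5.46 in Δ/Δ 2, with the others between 5.67 and 5.70.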

How the results depend on the processing

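No member passed an adjusted p under 0.05 under any of the 15 alternatives, and the median log2 fold change of the members stayed between -0.05 and -0.01. Kmt2d kept its direction in all 15, between -0.31 and -0.18, and an unadjusted p under 0.05 in 8. The count of members lower at an unadjusted p under 0.05, 1 with all arrays, was 2 with cyclic loess (Mtf2 and Kmt2d), 2 with low values raised to the 25th percentile (Aebp2 and Kmt2d), 0 among genes above the median level and 0 with the replicate block. Leaving out 1 array gave 0 to 3, the 3 without fl/fl 2 (Aebp2, Mtf2 and Kmt2d). Without fl/fl 2 the count over all 19938 genes, in either direction, also rose, to 1731 from 1492. The count of higher members, 0 with all arrays, was 1 with the replicate block (Ezh2, log2 fold change 0.31), 1 without both fl/fl 1 and Δ/Δ 3 (Bmi1) and 0 to 1 with 1 array left out. Members without overlap were 3 in the lower direction with cyclic loess and 3 without both fl/fl 1 and Δ/Δ 3, where 2 were higher. With array medians subtracted 1 was lower, Setd1b in place of Kmt2d. With 1 array left out they ranged over 1 to 5 lower and 0 to 1 higher. The share of all genes without overlap was not counted under the alternatives, so these counts have no background. Suz12 alone passed with a change over 1.5-fold, without fl/fl 2, so that count ranged over 0 to 1. In all, 8 members passed the unadjusted threshold under some alternative, 22 kept their sign under all and 21, all of them past no threshold when the sign changed, did not. The cause of these shifts was not tested. Deviations of same-numbered arrays correlated at -0.02, 0.10 and -0.18. The highest correlations between genotypes were 0.33 for Δ/Δ 4 with fl/fl 3 and 0.27 for Δ/Δ 3 with fl/fl 1. Whether arrays were handled in pairs cannot be told from these values, so the block describes only shared numbers. Of all 19938 genes, 1492 passed the unadjusted threshold, and 986 did without Δ/Δ 1. When only the 9969 genes above the median level were tested, 928 of them passed. The median of the methyltransferases lay between -0.25 and -0.08. That of the accessory subunits ran from -0.33 without fl/fl 2 to -0.09 without both fl/fl 1 and Δ/Δ 3. The median of the PRC2 core changed sign, from -0.07 without fl/fl 2 to 0.13 without fl/fl 1. Those of the RING and PCGF genes and the shared subunits lay between -0.02 and 0.05 and between -0.05 and 0.01. Subtracting array medians moved the median of all genes to -0.01. Paralog differences were not run with array weights, and overlap was not counted with weights or the block.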
